A study of Arabidopsis thaliana with 6 samples.

Results

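FRUITFULL (FUL) peaks that were listed in inflorescence meristems (IM) and had no overlapping peak in pistils numbered 1480 of the 3650 IM peaks, a share of 40.5%. A member was any peak of the IM list that shared not even 1 bp with a peak of the pistil list, so the members were chosen by the peak positions in both lists, and the difference between the lists is given here as a description. The other 2170 IM peaks overlapped a pistil peak. The pistil list held 3494 peaks, of which 1278 overlapped no IM peak, and the lists held 7144 peaks together. Among the genes with an IM-only summit inside or within 3 kb, which were 10.7% of all protein-coding genes, were the shoot apex regulators WUS, STM and KNAT2 and the leaf polarity gene PHV, which had no pistil summit as near. They also included 7 of 10 LSH genes and all 3 CUC genes, of which 4 LSH genes and 1 CUC gene had a pistil summit too. The WUS peak (−log10 p 24.7) and PHV peaks of 23.7 and 23.4 were below 34.4, the lowest −log10 p of the pistil list. So were the IM-only peaks at CUC1 (22.7), CUC2 (30.1) and CUC3 (25.9). The STM (38.6 and 51.2) and KNAT2 (57.6 and 97.2) peaks and the other PHV peak (70.1) were above it. The pistil list held no peak below 34.4, and how its peaks were selected is not given in the sources used here.

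In Arabidopsis thaliana, FUL encodes a MADS-domain protein that acts at the shoot apex in the floral transition and later in the fruit, where it patterns the valves. MADS-domain proteins bind DNA as dimers and in larger complexes at CArG boxes, and their partners differ between organs. The inflorescence meristem is the dome of dividing cells at the shoot tip. It keeps a stem cell pool through WUSCHEL and KNOX homeodomain proteins, sets off new primordia at organ boundaries, and gives each primordium an upper and a lower side.

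FUL tagged with green fluorescent protein (FUL-GFP) was expressed from the FUL promoter and precipitated with beads against GFP, and the bound DNA was sequenced (ChIP-seq). IM plants, aged 4 to 5 weeks, carried the transgenes pFUL:FUL-GFP and 35S:AP1-GR and the mutations ap1-1 and cal-1. The loss of AP1 and CAL makes the apex form meristems in place of flowers, and the AP1-GR protein was left uninduced. The pistils, of stages 12 to 16, were taken from plants that carried pFUL:FUL-GFP and the ful-1 mutation, whereas the IM labels name no ful mutation. Both lines are described as F2 plants of Ler and Col, grown at 21 °C in 16 h of light and 8 h of dark. Each tissue had 2 ChIP samples and 1 input sample, 6 samples in all. Tissue, developmental stage and mutant background differ together between the lists and cannot be told apart.

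Each tissue has 1 deposited list of peaks, called on its replicates together. Each peak therefore has 1 value with no spread between replicates, and the read depth behind it is unknown. Coordinates are on TAIR10, and fold is the authors' fold enrichment at the summit, the highest point of the peak. Folds are ranked within their own list. The lists ended at different strengths: the lowest −log10 p was 22.4 for IM and 34.4 for pistil. Both are also selections, with 3650 peaks numbered up to 13754 for IM and 3494 numbered up to 14602 for pistil. A peak missing from the pistil list is therefore not shown to be unbound there, and in pieces of tissue the number of cells bound and the binding per cell cannot be told apart.

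The strongest IM-only peaks stood at genes of several kinds, led by an ALOG family gene and a cytokinin gene. The highest fold, 7.57, belonged to a peak with its summit inside LSH2, a gene of the ALOG family, some of whose members act at organ boundaries (chromosome 3, 1216129 to 1217460). THA2 lay 392 bp and AT3G04500 2875 bp from that summit. The second peak, with a fold of 7.45, lay inside IPT5, which encodes an isopentenyltransferase for the first step of cytokinin synthesis (chromosome 5, 6361235 to 6362448). The third, with a fold of 7.34, lay 153 bp from AT5G59390 and 466 bp from MBD6, a gene for a methyl-CpG-binding domain protein, with the actin gene ACT4 at 2336 bp (chromosome 5, 23953684 to 23954686). The LSH2 peak was 40478 bp from the nearest pistil peak, the IPT5 peak 19721 bp and the AT5G59390 peak 9697 bp, so none of the 3 had a pistil peak within 3 kb. The fold of 7.57 ranked 75 in the whole IM list and that of 7.45 ranked 85.

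The peaks of rank 4 to 10 had folds from 7.06 to 6.53. A peak of fold 7.06 lay inside MLO6, a gene tied to powdery mildew susceptibility (chromosome 1, 22711358 to 22712180). A peak of fold 6.99 lay inside LARP1b, a gene for a La-related RNA-binding protein, and 41 bp from AT5G66090 (chromosome 5, 26426835 to 26427669). A peak inside AT5G01940 had a fold of 6.95 and stood 22 bp from AT5G01950 and 1979 bp from the mannanase gene MAN6. These 3 genes and their neighbours within 3 kb had no pistil summit. Peaks of fold 6.93 lay inside AT5G05230 and 190 bp from AT4G14620, and peaks inside THO2, for a subunit of the THO complex of mRNA export, and inside AT1G69730 had folds of 6.78 and 6.53. The AT1G69730 peak was also 1489 bp from HO3, a haem oxygenase gene, and 1551 bp from HEMB1, a gene of tetrapyrrole synthesis.

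The 11th to 20th peaks had folds from 6.38 to 5.95. They lay 332 bp from AT1G23710, 7 bp from PDK (pyruvate dehydrogenase kinase), 1317 bp from the nitrate transporter gene NRT2.2 and 1528 bp from the tubulin gene TUB2. Others lay inside AT5G40030, 312 bp from sks13 with sks11 at 1215 bp, and 233 bp from BRL3, which encodes a brassinosteroid receptor. The KNOX gene KNAT2 held a summit of fold 6.09 (chromosome 1, 26579912 to 26581797). The last peaks lay 82 bp from AT1G47280 (fold 5.98) and 379 bp from AT1G45230 (fold 5.95), the latter 1133 bp from ABF2, a bZIP gene of abscisic acid responses. Of the 20 peaks, 10 had their summit inside a protein-coding gene, against 32.0% of all IM-only peaks. Another count, of peaks 10 kb or more from any pistil peak, was 11 of 20, against 46.4%. At 15 the nearest gene had no pistil summit within 3 kb. This was near the 76.8% of all genes with an IM-only summit that had no pistil summit. The exceptions among the 20 nearest genes were AT4G14620, AT1G23710, PDK, sks13 and BRL3, and the BRL3 peak ended 118 bp from a pistil peak.

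**Figure D1:**
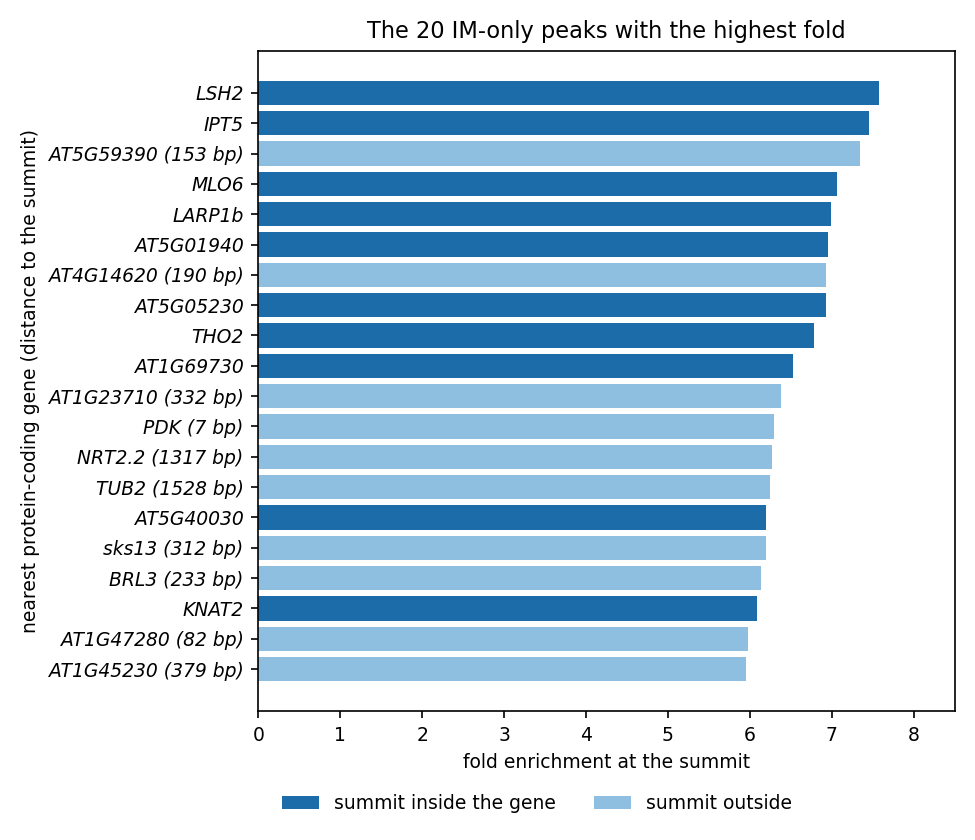
Fold enrichment at the summit (horizontal axis, no unit) of the 20 IM-only peaks with the highest fold, each bar 1 peak named by its nearest protein-coding gene with the distance in bp where the summit is outside it. Folds run from 7.57 at LSH2 to 5.95 near AT1G45230, and 10 of the 20 summits lie inside a gene, against 32.0% of all IM-only summits.

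IM-only peaks were the weaker members of the IM list. Their fold ran from 2.52 to 7.57 with a median of 3.43 (quartiles 3.08 and 3.93), against a median of 4.16 (3.41 and 5.28) and a highest fold of 9.81 for IM peaks that overlapped a pistil peak. With the IM list cut by fold into 10 parts, they made up 59.7% of the lowest part (218 of 365) and 5.21% of the highest (19 of 365). Their −log10 p had a median of 33.6 (26.7 and 46.1), below the 34.4 at which the pistil list ended. Above that limit stood 699 of them (47.2%). A fold of 5 or more was found at 95 IM-only peaks, among 745 IM peaks with such a fold. The pistil list holds no peak with a −log10 p like that of the remaining members, which limits every count of sites found in IM alone. IM-only peaks had a median width of 953 bp (808 and 1292 bp) and reached 4305 bp, and 104 of them were 2 kb or wider. IM peaks that overlapped a pistil peak were wider, with a median of 1195 bp (895 and 1682 bp) and a highest width of 9767 bp.

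**Figure D2:**
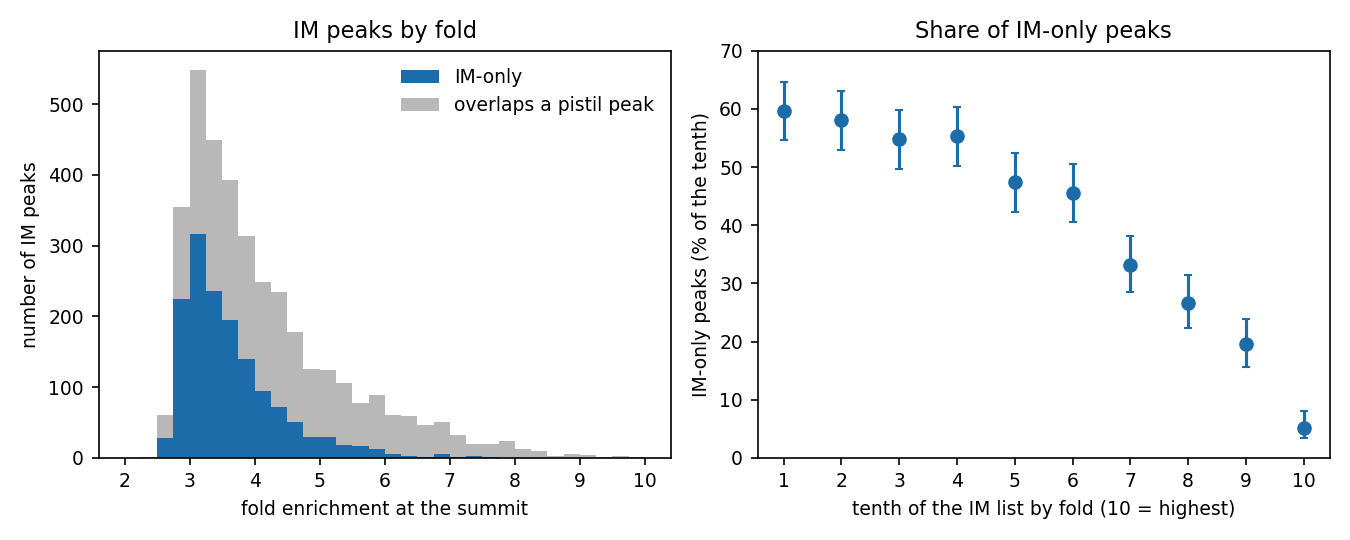
Left, number of IM peaks by fold enrichment at the summit in steps of 0.25, split into IM-only peaks and those that overlap a pistil peak, stacked. Right, share of IM-only peaks in each of 10 parts of the IM list by fold, with Wilson 95% intervals that cover counting error only; the share is 59.7% in the lowest part and 5.21% in the highest.

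Many IM-only peaks were far from any pistil peak, and a smaller part lay at the edge of one. The gap to the nearest pistil peak had a median of 8560 bp (quartiles 2804 and 20281 bp) and a range from 29 to 403639 bp. It was 10 kb or more for 686 peaks (46.4%), from 3 to 10 kb for 407 (27.5%), under 3 kb for 387 (26.1%) and under 500 bp for 79 (5.34%). The widest gap belonged to a peak 929 bp from EPF2, which encodes a peptide that limits stomatal precursors (fold 3.74). The peaks nearest the limit of the rule on its inner side were 119 bp from AT4G15430 (29 bp from a pistil peak, fold 3.26), 89 bp from the nitrilase gene NIT2 (37 bp, fold 2.69) and 790 bp from the auxin receptor gene TIR1 (96 bp, fold 2.88). Just outside it stood IM peaks near CRF10, which shared 1 bp with a pistil peak (fold 2.90), at AOS with 60 bp (fold 2.99) and near EXPA10 with 77 bp (fold 3.55). The caller had split some regions into lettered pieces, and 297 IM-only peaks (20.1%) were such pieces. Such pieces were not counted among the other IM peaks, so the share is not compared with the whole list. By chromosome the share of IM peaks that were IM-only was 43.2%, 39.7%, 40.1%, 39.6% and 38.9% for chromosomes 1 to 5.

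IM-only summits lay inside or within 3 kb of 2930 of 27444 protein-coding genes (10.7%), which is the background for the gene counts that follow. A pistil-only summit lay as near to 2189 genes (7.98%), any IM summit to 6505 (23.7%) and any pistil summit to 5859 (21.3%). Of the 2930 genes, 2251 had no pistil summit within 3 kb, which is 8.20% of all genes. The other 679 (23.2% of the 2930) had an IM-only peak besides a pistil summit. A shared IM peak also lay at 482 of the 2930 genes (16.5%). A pistil-only peak also lay at 227 of them (7.75%), close to the 7.98% of all genes that had one. Genes crowd closely in this genome: 489 IM-only peaks had 3 or more genes within 3 kb, 612 had 2, 337 had 1 and 42 had none. Counting for each summit its nearest gene alone left 1370 genes (4.99%), 1178 of them with no pistil summit by the same count (4.29%). Within 1 kb the counts were 1720 (6.27%) and 1540 (5.61%).

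Genes of the shoot meristem were near IM-only summits more often than the background share, at 10 of 20 listed genes (50%). Of the 20, 8 (40%) had such a summit and no pistil summit, against 8.20% of all genes. Any IM summit was near 15 of the 20 and any pistil summit near 7, against 23.7% and 21.3% of all genes. WUS, which keeps the stem cells in the apex, had 1 summit at 357 bp with a fold of 3.07 (chromosome 2, 7810932 to 7811416). STM, the KNOX gene that holds cells undifferentiated, had summits at 272 and 1664 bp with folds of 3.46 and 3.65 (chromosome 1, 23061327 to 23062957 and 23063316 to 23064440). KNAT2, of the same family, had the summit inside it of fold 6.09 and another 975 bp away of fold 4.08. None of these 3 genes had a pistil summit within 3 kb, and no pistil peak came within 10779 bp of either STM site. The WUS peak had a −log10 p of 24.7, below the 34.4 at which the pistil list ended. The third KNOX gene with an IM-only summit was KNAT1 (also called BP), with a fold of 3.67 inside the gene. It had a pistil-only summit inside as well, and the nearest pistil peak was 620 bp from the IM-only one.

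In the CLAVATA pathway, which limits WUS, the receptor-like gene CRN held a summit of fold 3.40 and the receptor kinase gene BAM1 had one at 2079 bp with a fold of 4.53. CLV1, the founding receptor of that pathway, had an IM-only summit at 2788 bp with a fold of 2.94, nearer to LCR67 than to CLV1, and 2 shared pistil summits. The homeodomain gene BLH8 (PNF), which acts with KNOX proteins, had a summit at 801 bp with a fold of 3.78. ULT1, a trithorax-group gene that restricts meristem size, had summits inside and at 1010 bp with folds of 3.48 and 3.05. HAM3, a GRAS gene that keeps the meristem, had one at 2841 bp with a fold of 2.84, nearer to EDA34. The ULT1 summit at 1010 bp lay nearer to AT4G28180. Apart from CLV1, these genes had no pistil summit. The peaks at CRN (−log10 p 30.2) and HAM3 (26.1) and the weaker ULT1 peak (23.7) were below the 34.4 at which the pistil list ended.

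Organ boundary genes and the LSH family had the highest share of the 16 lists, 12 of 19 genes (63.2%). Of the 19, 6 (31.6%) had such a summit and no pistil summit, against 8.20% of all genes. The list was also near FUL peaks in general. Any IM summit was near 14 of the 19 and any pistil summit near 9, against 23.7% and 21.3% of all genes. Among LSH genes, LSH2 had a second summit at 1433 bp with a fold of 4.33, nearer to AT3G04500. LSH5 had one at 377 bp with 3.23 and LSH10 one at 1668 bp with 3.21. These 3 genes had no pistil summit. The LSH5 and LSH10 peaks, of −log10 p 31.6 and 30.5, were below the 34.4 at which the pistil list ended. LSH1 held a summit of fold 5.56 (chromosome 5, 10455021 to 10456182), LSH4 had one at 1302 bp with 4.53 and LSH6 held one of 3.08. LSH3 had summits at 1014 and 2340 bp with folds of 4.34 and 3.57, the latter nearer to AT2G31150. LSH1, LSH3, LSH4 and LSH6 each also had a shared pistil summit, so at 4 of the 7 LSH genes the IM-only peak was a site besides one listed in both tissues.

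The CUC genes, NAC transcription factors that keep neighbouring organs apart, all had an IM-only summit of low fold. It was 2.73 at 454 bp for CUC1, 2.84 at 1384 bp for CUC2 and 2.99 inside CUC3. CUC2 also had a pistil-only peak of pistil fold 6.40 at 337 bp, while CUC1 and CUC3 had no pistil summit. The IM-only peaks at CUC1 and CUC3 had −log10 p of 22.7 and 25.9, below the 34.4 at which the pistil list ended. BOP2, which acts at the base of lateral organs, had summits inside and at 383 bp with folds of 3.49 and 5.34, beside a shared pistil summit. The MYB gene LOF1 had one at 2661 bp with a fold of 3.72, nearer to AT1G26790. Pistil-only summits were near 2 of the 19 boundary and LSH genes and 2 of the 20 meristem genes.

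Leaf polarity and organ growth genes followed, with 11 of 23 genes (47.8%). Of the 23, 7 (30.4%) had such a summit and no pistil summit, against 8.20% of all genes. A pistil-only summit was near 6 of the 23 (26.1%), against 7.98% of all genes. Any IM summit was near 13 and any pistil summit near 9, against 23.7% and 21.3% of all genes. PHV, an HD-ZIP III gene of the upper organ side, had 3 IM-only summits at 945, 9 and 988 bp, on both sides of the gene, with folds of 4.97, 2.88 and 2.90. Its relatives PHB and REV had 1 each, with folds of 3.07 and 2.95, and PHB also had a shared pistil summit. The lower-side gene KAN2 had 3 summits, at 107 bp, inside and at 45 bp, with folds of 3.01, 2.99 and 2.91. KAN3 had one at 15 bp with a fold of 3.04 and a pistil-only summit at 988 bp. YAB2 held one of fold 3.41. The 3 KAN2 peaks (−log10 p 25.1 to 28.6) and the REV peak (27.3) were below the 34.4 at which the pistil list ended. So were the PHV peaks of folds 2.88 and 2.90 (23.7 and 23.4).

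All 3 AIL genes listed, AP2-type regulators that promote growth of primordia, had an IM-only summit and no pistil summit. The folds were 4.24 inside AIL6, 4.23 inside AIL7 and 4.24 at 1951 bp from AIL5. The nearest pistil peaks were between 31113 and 63663 bp away. JAG and NUB, zinc-finger genes of organ growth, showed both kinds of site. JAG had an IM-only summit at 1901 bp (fold 4.48), a shared one and pistil-only summits inside and at 833 bp. NUB had an IM-only summit at 1527 bp (fold 4.45), nearer to AT1G13410, and pistil-only summits inside and at 156 bp.

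**Figure D3:**
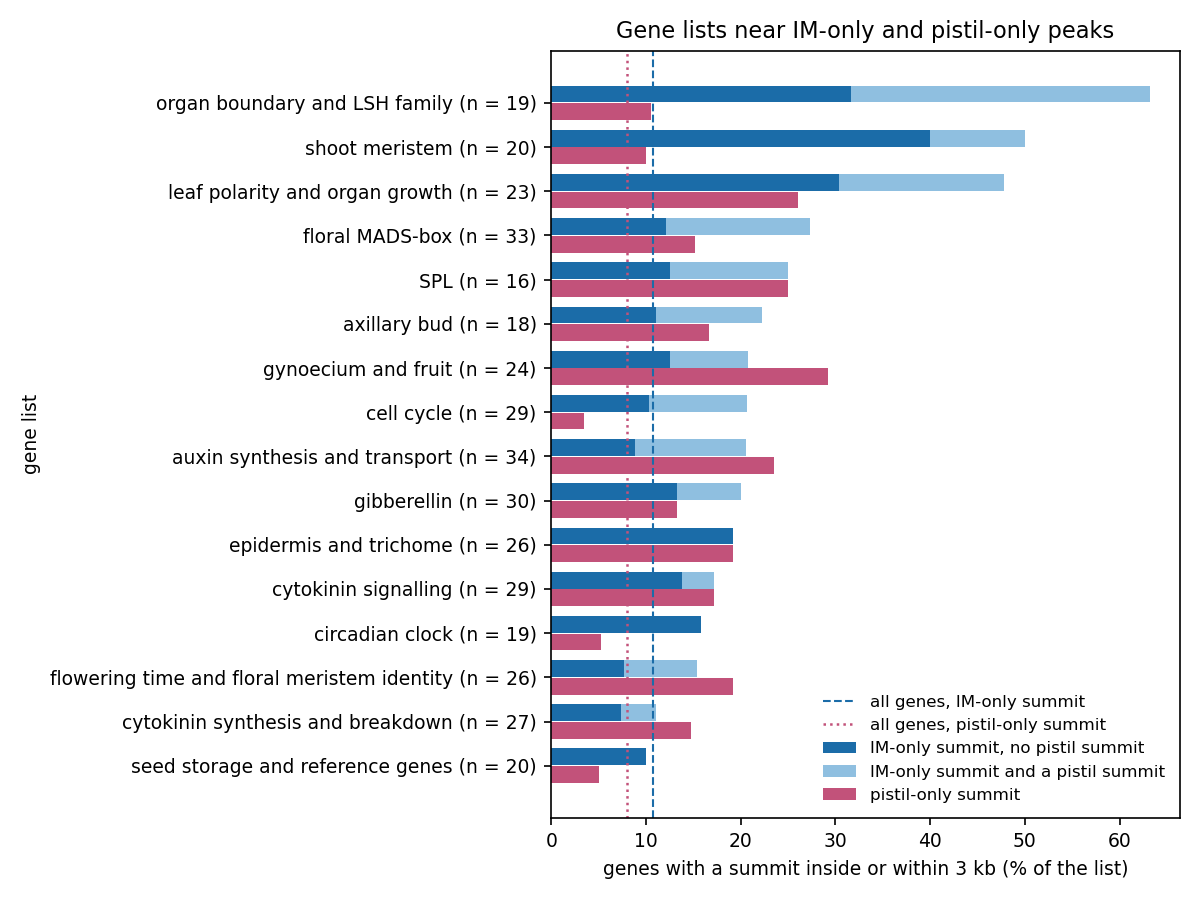
Share of the genes of each list (horizontal axis, %) with an IM-only summit inside or within 3 kb, in dark blue where no pistil summit is as near and light blue where one is, and with a pistil-only summit in pink; lines mark the shares over all protein-coding genes, 10.7% and 7.98%. The organ boundary and LSH list (63.2%), the shoot meristem list (50%) and the leaf polarity list (47.8%) stand above the other 13 lists.

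Over the 16 lists, 96 of 390 genes (24.6%) had an IM-only summit. An IM-only summit and no pistil summit were found at 60 (15.4%), against 8.20% of all genes. Thus 60 of the 96 had no pistil summit, a smaller part than the 76.8% among all genes with an IM-only summit. The share with an IM-only summit was above the 10.7% of all genes in 15 of the 16 lists. Over all 16 lists, 63 genes (16.2%) had a pistil-only summit, against 7.98% of all genes, although the cell cycle list (3.45%), the clock list (5.26%) and the seed storage and reference list (5.0%) were below that share. Listed genes had more room around them: the median length within 3 kb not covered by genes was 3686 bp for listed genes and 2541 bp for all genes, with 4475 bp for the meristem list, 4740 bp for the boundary list and 4210 bp for the polarity list. The list median was above that of all genes in 15 of the 16 lists. The part of this length in the counts was not tested. At an IM −log10 p of 34.4 or more, 5.28% of all genes had an IM-only summit (1448). This limit does not make IM and pistil peaks equal in strength, as read depth is unknown. With it the counts fell to 6 of 20 for the meristem list, 6 of 19 for the boundary list and 7 of 23 for the polarity list. Within 1 kb, where the share of all genes was 6.27%, each of these 3 lists had 7 genes.

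Floral MADS-box genes, the family of FUL itself, had an IM-only summit at 9 of 33 (27.3%). Such a summit and no pistil summit were found at 4 (12.1%), against 8.20% of all genes. A pistil summit of some kind was near 19 of the 33 and an IM summit near 22, against 21.3% and 23.7% of all genes. AGL19, which promotes flowering, had summits inside and at 685 bp with folds of 4.51 and 4.65. AGL42, a relative of SOC1, had 3 IM-only summits at 663 bp, inside and at 57 bp, with folds of 4.04, 3.01 and 3.89 (chromosome 5, 24963003 to 24969399). A pistil-only summit lay 1474 bp from AGL42 beyond the last of these peaks, with its own peak 435 bp from it. Its close relative AGL71 had one at 158 bp (fold 3.46).

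AGL6 and SOC1 (AGL20) shared an IM-only peak of fold 4.33 that lay 307 bp from AGL6 and 612 bp from SOC1, the flowering integrator (chromosome 2, 18806104 to 18807953). AGL6 held a second one of fold 3.14, and both genes had shared pistil summits. FLC, the repressor of flowering before winter, held a summit of fold 3.89 and had a shared pistil summit at 2440 bp. The remaining sites were at 1367 bp from AGL13 (3.88), 2927 bp from MAF2 (3.64) and 2998 bp from the petal and stamen gene AP3 (3.08). Each of these last 3 sites lay nearer to a different gene, as the SOC1 site did to AGL6, so the count falls to 5 of 33 when nearest genes alone are taken.

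Flowering time and floral meristem identity genes were close to the background, with 4 of 26 (15.4%). Yet 16 of the 26 had a pistil summit of any kind and 15 an IM summit, against 21.3% and 23.7% of all genes. The bZIP gene FDP, a partner of the flowering signal, held a summit of fold 4.14, and VIN3, which silences FLC in the cold, had one at 227 bp of fold 2.88. TOE3, an AP2-type repressor, and ATC, a relative of TFL1, held summits of 3.55 and 3.04 beside shared pistil summits. SPL genes, some of which promote the adult phase and flowering, gave 4 of 16 (25%), the same number as had a pistil-only summit. SPL15 had one at 313 bp with a fold of 3.73, nearer to AT3G57910, and SPL7 one at 232 bp with 3.13. SPL9 held one of 3.0, and SPL8 had one at 185 bp of 3.12, both beside shared pistil summits.

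Among cytokinin genes the IPT5 site stood apart from the rest of its list. Synthesis and breakdown genes gave 3 of 27 (11.1%), near the background: besides IPT5, IPT6 at 1766 bp (fold 3.96) and IPT2 at 135 bp (fold 2.78), the last with a pistil-only summit too. Cytokinin signalling genes gave 5 of 29 (17.2%). The response regulator ARR3 had a summit at 1970 bp with a fold of 4.05, and AHP6, an inhibitor of the signal, had one at 71 bp with 3.90, nearer still to PP2-B11. The receptor gene HK3 (fold 3.04), ARR20 (2.99) and ARR8 (2.94) had weaker ones, and of the 5 ARR8 alone had a pistil summit. The summits at IPT6 and HK3 lay nearer to AT1G25400 and AT1G27330.

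Auxin genes gave 7 of 34 (20.6%), fewer than the 8 with a pistil-only summit. The receptor genes TIR1 and AFB2 had IM-only summits, TIR1 at 87 and 790 bp with folds of 5.47 and 2.88 and AFB2 inside with 3.36. The TIR1 summit of 5.47 lay nearer to AT3G62970. Both receptor genes also had pistil-only summits. The carriers PIN7 (3.16) and AUX1 (2.96) had pistil summits as well. LAX1, another influx carrier, held a summit of 3.47, and the synthesis genes YUC2 and YUC4 had ones at 247 and 66 bp with folds of 3.10 and 2.87; these 3 had no pistil summit. At an IM −log10 p of 34.4 or more the count was 1 of 34, by the TIR1 site nearer to AT3G62970, with the other sites below that limit.

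Gibberellin genes gave 6 of 30 (20%). GA2OX4, which inactivates gibberellin, held a summit of fold 5.56 (chromosome 1, 17698285 to 17700489), 30868 bp from any pistil peak. GA3, a synthesis gene, held one of 3.59, and the DELLA gene RGL1 (2.92) and the receptor gene GID1A (2.79) had weaker ones. GA3OX1, for the last step of synthesis, had one at 520 bp with 4.02, and GA2OX2 had a pair of 3.35 and 2.69, both genes also with pistil-only summits inside. Axillary bud genes gave 4 of 18 (22.2%): RAX1 (MYB37), which starts axillary meristems, had 3 IM-only summits of folds 4.28, 2.96 and 2.99 around a shared peak, and RAX2 (2.97), the strigolactone receptor gene D14 (3.34) and SMXL8 (3.28) had 1 each. RAX1 and SMXL8 also had a shared pistil summit. The summits at RGL1, RAX2 and SMXL8, the RAX1 one of 4.28 and the GA2OX2 one of 2.69 lay nearer to other genes.

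Cell cycle genes gave 6 of 29 (20.7%), with 1 pistil-only summit in the list. All 3 CYCD3 genes, D-type cyclins that keep cells dividing in young organs, had IM-only summits. CYCD3;2 held one of fold 5.07 (chromosome 5, 26837516 to 26839547), CYCD3;1 had a pair of 3.58 and 2.93, and CYCD3;3 had one at 354 bp of 3.78. CYCD3;1 and CYCD3;3 also had a shared pistil summit, and CYCD3;2 did not. CYCD5;1 had summits of 3.32 and 3.79, and the cyclin-dependent kinase inhibitor genes KRP5 and KRP3 (ICK6) had 2.99 and 2.83. The CYCD5;1 summit of 3.79 lay nearer to ACA2 and the KRP5 summit nearer to PRT1.

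Epidermis and trichome genes gave 5 of 26 (19.2%), all without a pistil summit, against 8.20% of all genes with an IM-only and no pistil summit. At a −log10 p of 34.4 or more the count was 3 of 26. GL3, a bHLH gene of trichome formation, had summits at 120 bp and inside with folds of 4.23 and 3.20, and its partner EGL3 had one at 1548 bp of 3.29. EPF2 (3.74), GL2 (2.84) and the epidermal identity gene ATML1 (2.83) completed the list. Another 5 of the 26 genes had a pistil-only summit.

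Gynoecium and fruit genes gave 5 of 24 (20.8%), against 7 with a pistil-only summit. HEC1, a bHLH gene of the stigma and transmitting tract that also acts in the meristem, had summits of 3.80 and 2.95 and BEE1 one of 3.71, both beside pistil summits. ADPG1, for a pectin-cutting enzyme of fruit opening, had one at 1546 bp of 3.96. STY1 had one of 3.03 and ALC one at 169 bp of 2.96, nearer to ICU2. Both HEC1 summits lay nearer to RALFL34 and the ADPG1 summit nearer to AT3G57500. Circadian clock genes gave 3 of 19 (15.8%), RVE2 (3.81), LNK1 (3.52) and LUX (3.31), and none of them was the nearest gene of its summit or within 1 kb. Seed storage and reference genes, which are not linked to FUL, gave 2 of 20 (10%), close to the 10.7% of all genes. They were CRB, a cruciferin gene at 1889 bp from a peak of fold 5.35 that lay nearer to FLA9, and GAPC1 (3.07).

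Several genes collected more than 1 IM-only summit: 216 genes had 2 within 3 kb, 10 genes had 3 and none had more. Besides PHV, KAN2, AGL42 and RAX1, the 10 included SAP (STERILE APETALA), an F-box gene of flower and organ growth whose 3 summits all lay inside it, with folds of 4.37, 5.82 and 4.63 (chromosome 5, 13935850 to 13940433). The nearest pistil peak to SAP was 33076 bp away. VAMP713, a vacuolar SNARE gene, had 3 with folds of 3.89, 4.32 and 5.30, each nearer to another gene. ACA2, a calcium pump gene, shared its summits of 3.32 and 3.79 with CYCD5;1 and had another of 3.50. PP2CA, a phosphatase gene of abscisic acid signalling, had 3.38, 2.99 and 3.38, MYB108 had 2.87, 3.20 and 2.98 beside a shared peak, and AT2G45840 had 2.92, 3.73 and 3.64.

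**Figure D4:**
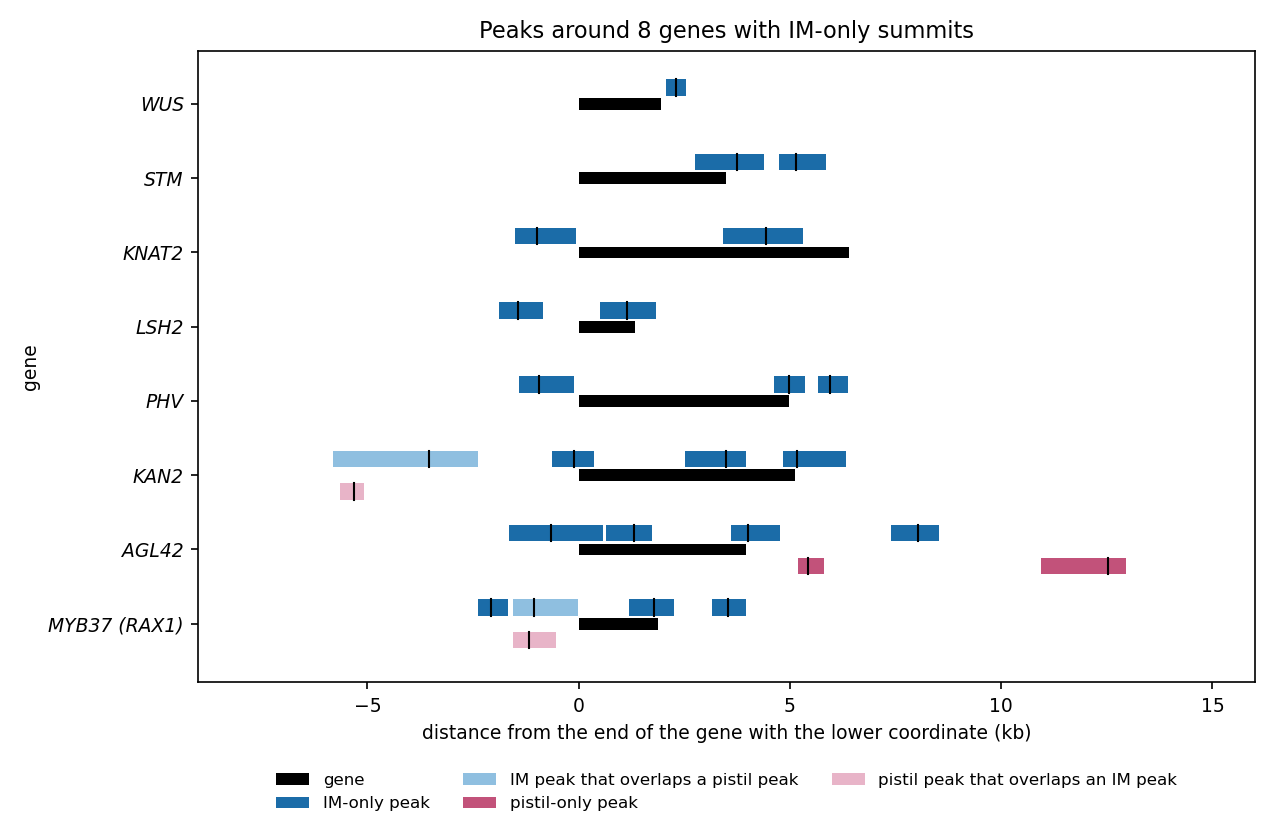
Peaks of both lists around 8 genes (rows) by distance in kb from the end of the gene with the lower coordinate; strand is not shown, bars are to scale, and black ticks mark summits. WUS, STM, KNAT2, LSH2 and PHV have IM-only peaks and no pistil peak in the plotted window. The WUS peak and the PHV peaks of fold 2.88 and 2.90 are below the lowest −log10 p of the pistil list. AGL42 has pistil-only peaks to one side, and KAN2 and MYB37 (RAX1) have a peak shared by both lists.

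The 227 genes with both an IM-only and a pistil-only summit within 3 kb, a share near the background as given above, had sites of both lists at different positions. AT4G14620 had IM-only folds of 2.98 and 6.93 and pistil-only folds of 7.14 and 3.55, in separate lists. CKL2, a casein kinase gene, had an IM-only summit 5 bp outside it (fold 4.92) and a pistil-only summit inside (fold 4.93), with 2452 bp between the peaks. EIN2, the central gene of ethylene signalling, held an IM-only summit of 4.13 and had a pistil-only one of 5.26 at 2341 bp, nearer to LOG6. The kinase gene WNK1 held an IM-only summit of 4.11 with pistil-only ones of 2.93, 4.06 and 7.33 around it.

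The other genes with both kinds and the highest lower fold were AT2G34810 (IM-only fold 4.20, inside), AT1G72160 (4.08, inside), AT5G22930 (4.33), AT1G10090 (4.16), VAT1 with AT5G16285 (1 peak of 5.31), TLP8 with ADAP (1 peak of 4.13), AT1G72175 and EB1C. AT1G72175 shared the AT1G72160 peak and EB1C that of CYCD3;2. At AT2G34810 pistil-only summits lay on both sides, 1148 and 479 bp away, with 707 bp from the IM-only peak to the nearer pistil peak. JAG, described above, completes the 15.

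MicroRNA loci were looked at after their values were seen. Of 326 loci 25 (7.67%) had an IM-only summit within 3 kb and 21 (6.44%) had one and no pistil summit. Both were below the shares of protein-coding genes, but a summit inside also counts and no share is corrected for locus length. MIR166 acts on HD-ZIP III transcripts such as PHV, and MIR166b had a summit at 714 bp with a fold of 4.15, while MIR166c and MIR166d shared a peak of 3.67 (chromosome 5, 2839054 to 2840802). MIR319, which acts on TCP growth regulators, had summits at MIR319a (3.42 and 3.56) and MIR319b (2.84). The MIR156 and MIR157 family, which acts on SPL transcripts, had summits at MIR157a (4.56), MIR156b (4.54), MIR156j (3.0, the SPL9 peak) and MIR157c (2.61), the last 3 beside pistil summits. MIR172d, of the family that acts on AP2-type transcripts, had one of 3.13.

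Beyond 3 kb of any protein-coding gene lay 42 IM-only summits, with folds from 2.62 to 5.64 and a median of 3.38. The strongest was 3551 bp from CYP707A1, a gene of abscisic acid breakdown (chromosome 4, 10517111 to 10518202). Of the 42, 23 lay within 3 kb of an annotated feature of a different kind: 10 long non-coding RNAs, 6 pseudogenes, 1 transcribed pseudogene, 3 microRNA loci, 2 other non-coding RNAs and 1 other RNA.

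The position of summits relative to genes was not used to choose the members and was compared between IM-only and shared IM peaks. IM-only summits lay inside protein-coding genes more often, 32.0% (474 of 1480, Wilson 95% interval 29.7 to 34.4) against 27.8% (603 of 2170, 25.9 to 29.7), with an odds ratio of 1.22 and an adjusted p of 0.012 (Fisher's exact test, two-sided, Benjamini-Hochberg over 4 classes). They lay less often from 1 to 3 kb away, 14.1% against 18.0% (odds ratio 0.751, adjusted p = 0.0079 by the same exact test). The shares within 1 kb, 51.0% and 50.6%, and beyond 3 kb, 2.84% and 3.69%, did not pass the exact test (adjusted p = 0.79 and 0.25). Among IM peaks with a fold between the quartiles of the list, 3.22 and 4.68, the inside share was 33.6% against 26.6% (odds ratio 1.40, adjusted p = 0.0045, exact test). When a peak counted as IM-only for having no pistil summit within 500 bp, the inside difference was 31.1% against 28.2% and no longer passed the exact test (adjusted p = 0.25). The difference from 1 to 3 kb was lost under that definition (adjusted p = 0.45) and at an IM −log10 p of 34.4 or more (adjusted p = 0.14), by the exact test. Peaks are not replicates, so these p-values describe the lists.

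**Figure D5:**
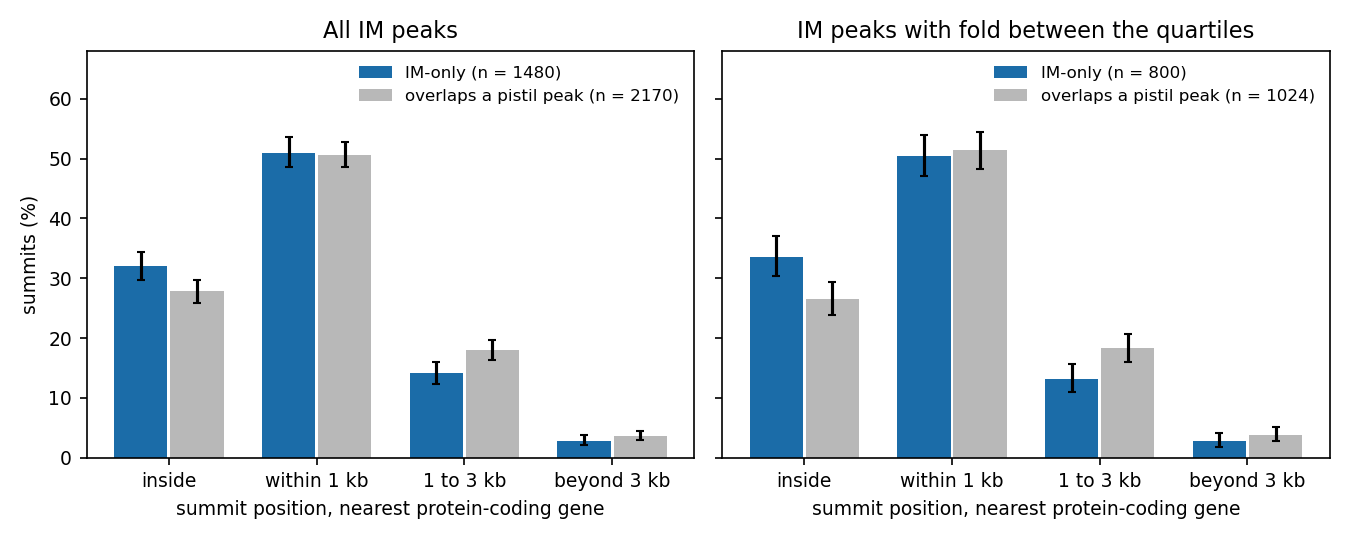
Share of summits (vertical axis, %) by position, from inside a gene to more than 3 kb away from the nearest protein-coding one, for IM-only peaks and IM peaks that overlap a pistil peak, with Wilson 95% intervals that cover counting error only. The inside share is 32.0% against 27.8% for all IM peaks (left) and 33.6% against 26.6% for those with a fold between the quartiles (right).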

How the data were processed

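Values came from 2 peak lists in narrowPeak layout, 1 per tissue. Per the submitters' processing notes, the build was TAIR10 and the tools were MACS2 2.1.0, Bowtie 1.1.2, Picard 2.60 and deepTools, with no roles stated. The fold is a ratio at the summit, as deposited by the authors. The −log10 p and the score, a whole number equal to 10 times it without its decimals, are also as deposited by the authors. Every deposited peak name says pooled, so the replicates of a tissue were called together. How peaks were selected, called and compared with the input is not given in the sources used here. How far the selection shaped the overlap was not tested. Read depth is unknown, and intervals cover counting error only. Samples were grouped by the tissue and antibody in the labels.

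Overlap was tested with a minimum of 1 bp, using Python 3.11.15, pandas 2.3.3, numpy 2.4.6, scipy 1.17.1 and statsmodels 0.14.6. Gene names and distances came from a RefSeq table of assembly TAIR10.1 with 27444 protein-coding genes on 5 chromosomes, which holds no strand or exons and whose coordinates are not printed. IM-only summits lay inside genes at 32.0% in place and at 61.5% to 64.3% when moved by up to 10 kb, which ties the table to the peaks. A gene was near a peak when the summit lay inside it or within 3 kb. The 16 gene lists held 408 names: 9 did not match, 6 were second names, and 15 were matched by hand. The nearest gene of each of the 20 peaks with the highest fold was named, with some but not all of the other genes within 3 kb. Up to 6 members a list with an IM-only summit were named, and the others were added after their values were seen. Genes with 3 or more such summits were also named, as were the 15 genes with both kinds of site and the highest lower fold. Members and lists were chosen with earlier results of these data known, so lists have counts and no test. Position classes were compared by Fisher's exact test, checked on simulated data. Planned motif tests were not run, as no sequence was used here.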

Additional observations from a re-analysis of the deposited data

How the results depend on the processing

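The number of IM-only peaks was 1401, 1687 and 1631 under the other definitions of a shared site (a gap of 500 bp, 50% of the peak covered, no summit within 500 bp). It was 699 at the common −log10 p and 475 at or above the median IM fold, limits that remove peaks by construction. The common −log10 p means 34.4 or more in the IM list, which does not match the lists in read depth. Genes near them numbered 1720 within 1 kb, 1370 as nearest gene and 1448 at the common −log10 p. Those with no pistil summit numbered 1540, 1178 and 1111. Listed genes fell from 96 to 62 within 1 kb, 73 as nearest gene and 51 at the common −log10 p, and the counts stayed within 1.5 times of the first count in 8, 10 and 3 of the 16 lists. The odds ratio for summits inside genes was 1.33 at the common −log10 p, 1.40 between the fold quartiles and 1.23 with a gap of 500 bp, and lost its call at 1.15 with no pistil summit within 500 bp, an alternative chosen after seeing the data, as were the nearest-gene counts of lists and of genes with no pistil summit. For 1 to 3 kb the call was lost at 0.798 (common −log10 p) and 0.895 (no pistil summit within 500 bp). Within 1 kb the odds ratio of 1.02 turned to 0.915, 0.966 and 0.971 with no call in any; the cause was not tested. No replicate could be left out. No paired analysis was possible because each list was called on its replicates together and holds no values per replicate.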

Other observations

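Gene families gathered by the letters of their symbols, with 20 or more members in the table, were counted in the same way, 49 families in all; they were chosen after the lists above and are given as counts. The KCS genes of very long fatty acid synthesis and the RABA genes of vesicle traffic had the highest shares, 6 of 21 each (28.6%). Expansins (EXPA, 6 of 23, 26.1%), ABCB transporters (7 of 27, 25.9%) and Aux/IAA genes (6 of 24, 25%) followed. The share of all genes was 10.7%. A pistil summit lay near 9 KCS (42.9%), 7 EXPA (30.4%), 3 ABCB (11.1%) and 13 Aux/IAA genes (54.2%), against 21.3% of all genes. None of the 6 RABA genes had a pistil summit within 3 kb, and 2 of all 21 did. At the other end stood the cysteine-rich receptor kinases (CRK, 1 of 40, 2.50%), SCRL (1 of 27, 3.70%) and LCR peptides (3 of 80, 3.75%). Genes with HB symbols had an IM-only summit at 3 of 37 (8.11%), while 17 of the 37 (45.9%) had a pistil summit. Symbols starting with these letters can take in unrelated genes.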
